A study of Caenorhabditis elegans with 12 samples.

Results

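Transcript levels of whole Caenorhabditis elegans were compared between day 6 (D6) and day 1 (D1) of adulthood in the wild-type strain N2. Both groups ate the E. coli strain OP50, and both grew at 25 °C from synchronized larvae to D1. After D1 the older group was kept at a lower temperature, which the sample labels give as 20 °C, 21 °C and 22 °C for replicates 1, 2 and 3 and the series' design text as 20 °C, so age and the shift to lower temperature cannot be told apart. Each group had 3 libraries, made from TRIzol RNA with the NEBNext Ultra kit. The series also holds 6 libraries of glp-1(e2141) animals, which lack most of their germline when raised at 25 °C and which enter here only where named. Levels are in FPKM, the fragments mapped to a gene, scaled by the gene's length and by the library's total. Of 20257 genes listed, the 12147 with at least 1 FPKM in 3 or more of the 6 wild-type libraries were compared, and 8110 lay below that filter. Of the genes tested, 612 reached 1 FPKM in D1 libraries only and 169 in D6 libraries only, and 600 of the former were called lower and 158 of the latter higher, which the filter favours. Just inside the filter lay best-9 and D1081.12, at 1.0033 and 1.0043 FPKM in the library that only just met the filter, and just outside Y52E8A.3 and ZK354.7, at 0.9997 and 0.9996 FPKM.

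An adult hermaphrodite makes its sperm first, stores them, and from then on makes only oocytes, which its own sperm fertilize until they run out. A large share of its RNA comes from this germline. Its intestine makes yolk proteins, which oocytes take up, and also serves as fat store and immune organ, while its epidermis secretes the collagens of the cuticle. Older adults are known for a decline of muscle, and the insulin-like receptor DAF-2 and the transcription factor DAF-16 set much of the pace of ageing in this animal.

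The libraries were alike within each age. Each held by estimate 18.2 to 19.6 M fragments (M, mega). Spearman's rank correlation between libraries over the genes tested was 0.978 within D1, 0.971 to 0.972 within D6 and 0.933 to 0.941 between the ages, and the D1 libraries had 12043 to 12113 genes at 1 FPKM or more against 11308 to 11517 at D6. The defining markers tried for germline, oocytes, body wall muscle, intestine, epidermis and coelomocytes averaged at least 1 FPKM at both ages, as did the 5 listed of 6 for somatic gonad. Of 16 neuron markers 14 did at D1 and 13 at D6, and of 7 pharynx markers 6 did at D1 and 4 at D6. The neuron marker unc-47, the pharynx marker phat-1, the sperm marker spe-9 and the cuticle marker bli-1 stayed under 1 FPKM in all 6 libraries. So did the embryo markers end-3 and med-2 and the male markers pkd-2 and lov-1. The other male marker, mab-3, averaged at least 1 FPKM at D1 but not at D6 and was not called. In whole animals, fewer cells of a type and less RNA per cell cannot be told apart. The labels do not state whether replicates were grown as separate cultures. The p-values rest on the scatter among these 6 libraries alone, part of which may be technical.

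More genes rose than fell, but most of the large changes were falls. With limma on log2(FPKM + 1) and Benjamini-Hochberg adjustment over all 12147 genes, 7806 genes (64.3%) passed an adjusted p of 0.05, of which 5014 were higher at D6 (41.3%) and 2792 lower (23%). Counts of calls in each list below are to be read beside these shares of all genes. Below, levels are given per library in replicate order or as mean ± SD (n = 3), and a signed value alone in brackets is the log2 fold change, D6 over D1. The median log2 fold change was 0.48 among the genes called higher, -0.91 among those called lower and 0.17 over all genes tested. At 2-fold or more, 458 genes rose (3.77%) and 1275 fell (10.5%), so 73.6% of the larger changes were falls. The 3 D6 libraries lay above all 3 D1 libraries in 5360 genes (44.1%) and below them in 3037 (25%). Because FPKM are shares of a library, the split moves with the scaling. Median-of-ratios scaling lowers the median of all genes by 0.17 and gives 3228 higher and 3565 lower calls, whereas scaling to the muscle and neuron lists raises it by 0.72 and gives 8678 and 1256. The muscle genes in that scaling fell themselves, which is how it raises all others. A scaling to the neuron list alone, chosen after the data had been seen, gave 4828 higher and 2445 lower calls.

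**Figure D1:**
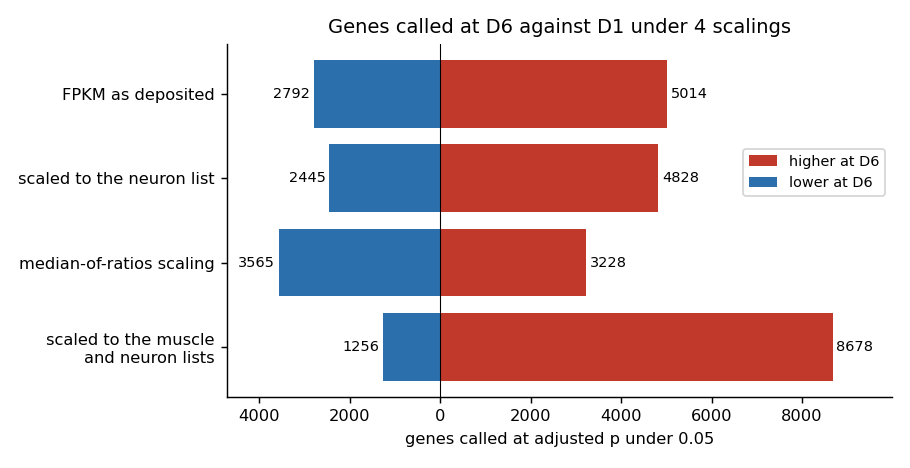
Numbers of genes called higher (to the right) and lower (to the left) at D6 against D1 in wild type at an adjusted p under 0.05, for the FPKM as deposited and 3 other scalings. With the deposited values 5014 genes were higher and 2792 lower, and median-of-ratios scaling turned the balance to 3228 against 3565.

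**Figure D2:**
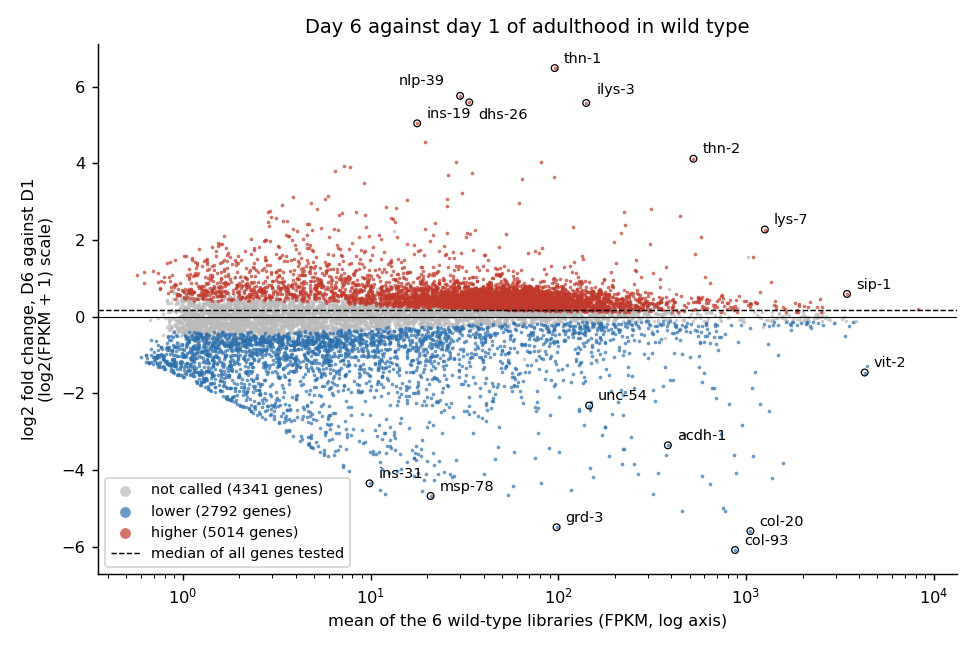
Log2 fold change of each gene tested (vertical axis, log2(FPKM + 1) scale) against its mean FPKM over the 6 wild-type libraries (horizontal log axis), with genes called higher in red, lower in blue and the rest in grey. The genes called higher have a median of 0.48 but reach 6.48 at thn-1. Those called lower have a median of -0.91 and reach -6.09 at the collagen col-93. The dashed line is the median of all genes, 0.17. The split between red and blue depends on the scaling.

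First of the 15 largest rises among named genes, the thaumatin-family gene thn-1 (chromosome IV, 12380084 to 12380900, plus strand, WBcel235) had 1.91, 0.852 and 0.749 FPKM at D1 and 156, 222 and 192 FPKM at D6 (log2 fold change 6.48, SE 0.20, adjusted p = 6.61e-08). Its relative thn-2 rose from 57.2 ± 13.6 to 992 ± 73.5 FPKM (4.12), and no D1 library of either gene came near a D6 library. The lysozyme gene ilys-3 had 16.50, 3.54 and 1.42 FPKM at D1 and 290.2, 279 and 254 FPKM at D6, a rise of 5.57 (SE 0.81, adjusted p = 0.00385), and its D1 libraries were spread widely. The neuropeptide-like gene nlp-39 stood at 0, 0.0931 and 0.291 FPKM at D1 and 61.7, 59.7 and 58.1 FPKM at D6 (log2 fold change 5.76, SE 0.14, adjusted p = 2.33e-09). Of the insulin-like genes, ins-19 had 0.329, 0 and 0 FPKM at D1 and 35.4, 33.0 and 37.4 FPKM at D6. For ins-8 the values were 0.138, 0 and 0 FPKM at D1 and 13.6, 23.02 and 10.1 FPKM at D6, which makes both nearly undetected at D1 and present in every D6 library. The short-chain dehydrogenase dhs-26 (chromosome X, 3360722 to 3362493, minus strand) rose from 0.428 ± 0.336 to 66.6 ± 2.76 FPKM (5.59). The other rises were the SCP/TAPS gene scl-20, which was listed at 0 in all 3 D1 libraries and had 15.6, 11.1 and 16.38 FPKM at D6, asm-3 (an acid sphingomyelinase), the antibacterial factor abf-2, the metallothionein mtl-1, the HMG-box gene hmg-6, the cytochrome P450 cyp-35B1, nspc-5 and dod-3. These 7 genes after scl-20 had log2 fold changes of 2.97 (dod-3) to 3.74 (asm-3). Among the 15 rises, nlp-39, ins-19, ins-8, dhs-26, scl-20 and cyp-35B1 reached 1 FPKM at D6 only, which the filter favours. The call of nspc-5 rests on variable D1 libraries (3.85, 0 and 7.72 FPKM, adjusted p = 0.0338) and is lost when D1 replicate 1 or any D6 library is left out (adjusted p = 0.0692 to 0.0943), with a pseudocount of 0.1 (0.0993) and with a replicate block (0.085).

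Of the 15 largest falls among named genes, 8 were collagens. The collagen gene col-93 (chromosome III, 10984552 to 10985609, minus strand) had 1734, 1878 and 1559 FPKM at D1 and 21.5, 26.9 and 24.6 FPKM at D6 (log2 fold change -6.09, SE 0.09, adjusted p = 1.72e-10). The 7 further collagens were col-20, col-80, col-160, col-124, col-179, col-94 and col-8, with log2 fold changes of -5.60 (col-20) to -4.38 (col-8). The hedgehog-related genes grd-3 (chromosome IV, 3439655 to 3440453, plus strand) and grd-5 fell from 193 ± 16.43 to 3.28 ± 0.179 FPKM (-5.50) and from 155 ± 16.22 to 6.75 ± 1.64 FPKM (-4.35). The C-type lectin clec-197 had 25.6, 25.6 and 20.3 FPKM at D1 and was listed at 0 in every D6 library. The insulin-like gene ins-31 had 20.5, 20.5 and 18.3 FPKM at D1 and 0, 0 and 0.0425 FPKM at D6, the reverse of ins-19. The others were the major sperm protein gene msp-78, the chemoreceptor-class gene sri-40 (from 36.8 to 0.627 FPKM) and pud-3, whose D1 libraries were spread over 28.5, 119.7 and 186 FPKM and whose D6 libraries lay at 3.26, 4.94 and 1.74 FPKM. Among the 15 falls, clec-197, ins-31, msp-78 and sri-40 reached 1 FPKM at D1 only, which the filter favours.

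**Figure D3:**
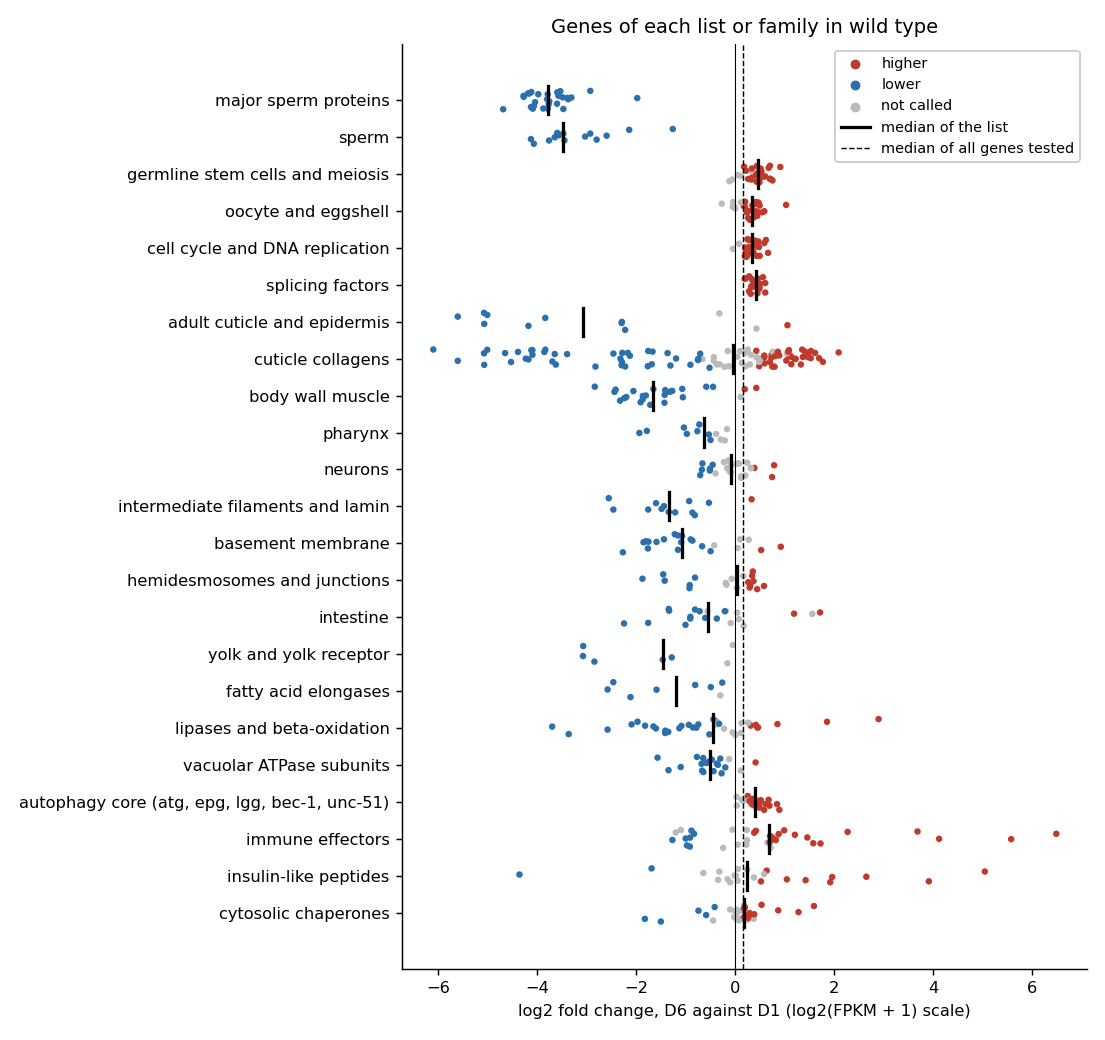
Log2 fold change of every tested member of 23 lists or name families, 1 point per gene, red where called higher, blue where called lower and grey where not called, with the median of the list as a thick bar and the median of all genes tested as a dashed line. Sperm genes sit between -4.68 and -1.26, and collagens run from -6.09 to 2.09. The germline list runs from -0.11 to 0.91 (median 0.46) and the oocyte list from -0.27 to 1.03 (median 0.35). Lists whose balance of calls turns under another scaling are named in the text.

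Sperm transcripts were far lower at D6. Major sperm proteins (MSPs) build the cytoskeleton of the crawling sperm and signal to oocytes. Summed over 31 msp genes, the level was 1109, 957 and 750.2 FPKM in the D1 libraries and 37.4, 27.3 and 62.3 FPKM at D6, 22.2-fold lower. All 28 msp genes that passed the filter fell, with a median of -3.78 beside 0.17 over all genes, and 3 lay below the filter. The genes are near-identical copies, so single values are uncertain and the sum is the firmer figure. For msp-31 the libraries had 53.3, 53.5 and 45.9 FPKM at D1 and 1.23, 1.21 and 4.38 FPKM at D6. For msp-142 they had 14.98, 20.5 and 9.15 FPKM at D1 and 0.259, 0.868 and 2.40 FPKM at D6 (log2 fold change -2.92, SE 0.40, adjusted p = 0.00034). The sperm-specific genes ssq-2 and ssq-4 fell by 3.75 and 3.64 on the log2 scale. Of the 20 genes of the sperm list, 15 were tested and all 15 fell (median -3.47), as did the 9 tested genes of the 10 sperm-linked nspd genes (median -3.52). Of these, 3 msp genes, 3 of the sperm list and 2 nspd genes reached 1 FPKM at D1 only and so could only fall. The counts were the same under the 3 other scalings.

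Most genes of the rest of the germline rose slightly. Of 30 genes for germline stem cells and meiosis, 25 rose and none fell (median 0.46). The synaptonemal complex gene syp-1 had 31.2, 27.5 and 28.9 FPKM at D1 and 58.0, 54.2 and 55.4 FPKM at D6 (log2 fold change 0.91, SE 0.08, adjusted p = 4.11e-06), with every D6 library above every D1 library. Its partner syp-4 rose from 71.4 ± 3.50 to 121 ± 4.34 FPKM (0.76), the RNA-binding daz-1 from 169 ± 10.6 to 276 ± 9.56 FPKM (0.71) and the PUF repressor fbf-1 from 14.5 ± 1.84 to 24.4 ± 1.93 FPKM (0.72). The Notch receptor glp-1, which keeps germline stem cells dividing, rose from 66.7 ± 2.16 to 97.9 ± 1.23 FPKM (0.55). The translational repressor gld-1 had 606, 609 and 616 FPKM at D1 and 626, 673 and 693 FPKM at D6 and did not pass the test (log2 fold change 0.12, SE 0.05, adjusted p = 0.0567). Under median-of-ratios scaling 20 of the 30 rose, and 19 did when all 12 libraries of the series shared 1 fit.

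The oocyte list showed the same modest shift. Of 30 oocyte and eggshell genes, 24 rose and none fell (median 0.35), 15 rose and 4 fell under median-of-ratios scaling, and 3 rose when all 12 libraries of the series entered the fit. The caveolin cav-1, which coats oocyte granules, had 355, 456 and 376 FPKM at D1 and 709, 906 and 810.0 FPKM at D6 (log2 fold change 1.03, SE 0.11, adjusted p = 8.93e-05). The small heat shock protein sip-1, known from oocytes and embryos, rose from 2760.0 ± 289.9 to 4142 ± 98.4 FPKM (0.59) and was among the 5 highest genes at D6. The eggshell proteoglycan cpg-3 rose from 742 ± 22.5 to 1089 ± 87.3 FPKM (0.55) and the maturation factor oma-2 from 421 ± 12.2 to 596 ± 35.4 FPKM (0.50). With all 12 libraries in the fit, cav-1, sip-1, cpg-3, oma-2 and daz-1 lost their calls (adjusted p = 0.131, 0.478, 0.328, 0.111 and 0.0802), as did cdk-1 and dpy-13 below (0.159 and 0.109), since that fit shares its spread with the glp-1 libraries. The yolk receptor rme-2 did not pass (log2 fold change -0.05, adjusted p = 0.444).

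Genes used by dividing nuclei and for RNA handling moved in the same small range. Among 29 tested cell cycle and replication genes 27 rose and none fell (median 0.35), 15 rose and 1 fell under median-of-ratios scaling, and 9 rose with all 12 libraries in the fit. The centromeric histone hcp-3 rose from 118.6 ± 5.02 to 189 ± 2.80 FPKM (0.67), the kinase cdk-1 from 235.2 ± 6.75 to 363 ± 20.2 FPKM (0.62) and the helicase subunit mcm-5 from 144 ± 7.12 to 217 ± 4.21 FPKM (0.59). Splicing factors rose in 21 of 22 cases (median 0.43), with sap-49 and uaf-2 both at 0.61, and in 12 of 22 under median-of-ratios scaling. Nucleoporins rose in 18 of 22 (median 0.43). Skp1-related genes, adaptors of ubiquitin ligases, rose in 15 of 19 (median 0.57), led by skr-12 (from 14.4 to 37.1 FPKM) and skr-9 (from 21.3 to 52.7 FPKM). Among the P granule and germline small RNA genes 12 of 19 rose and 2 fell, which became 4 and 4 under median-of-ratios scaling. The Piwi protein gene prg-1 led them, from 128 ± 3.34 to 197 ± 3.62 FPKM (0.62). Histone genes rose in 33 and fell in 6 of 56 tested cases, but they are near-identical copies and their transcripts carry no poly(A) tail, so single values are uncertain. Of the 56, 5 reached 1 FPKM at D6 only and 1 at D1 only.

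**Figure D4:**
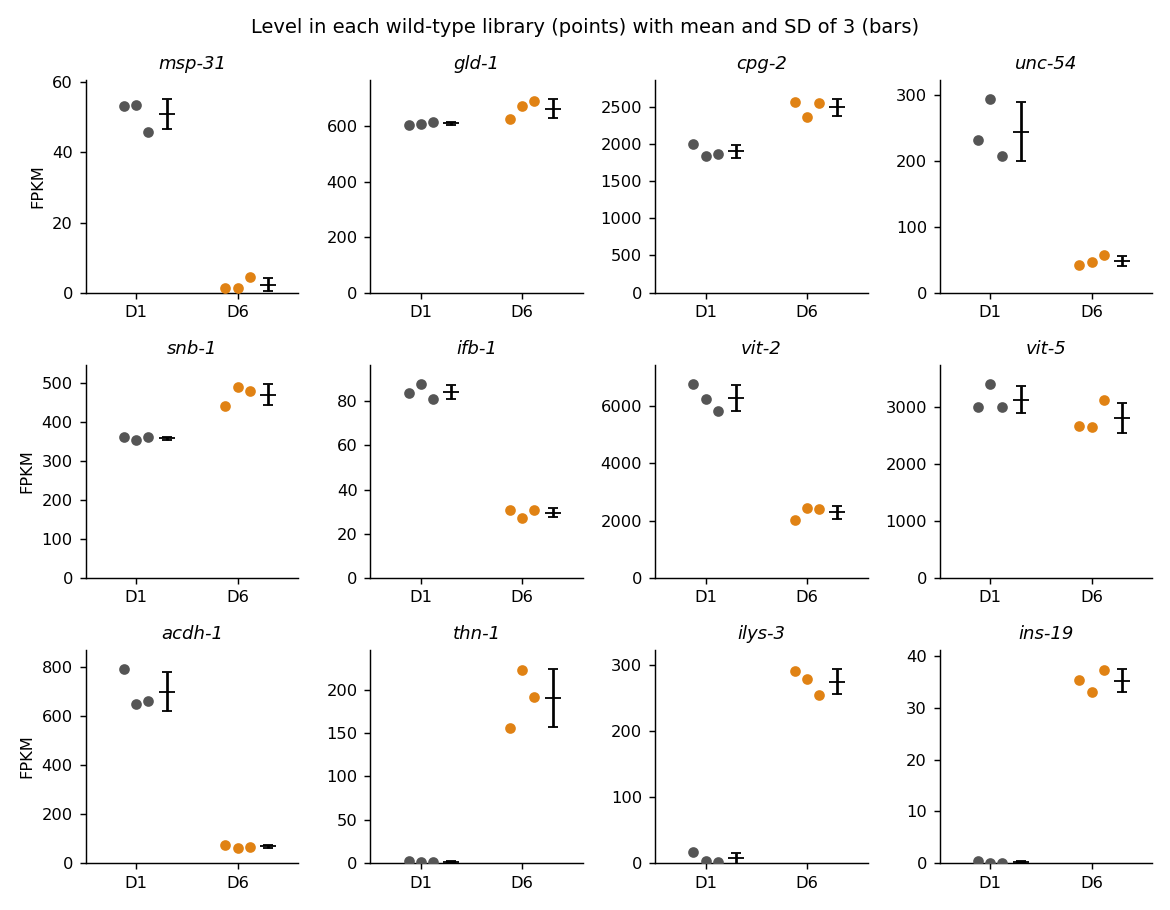
FPKM of 12 genes in each wild-type library (grey points for D1, orange for D6), with the mean and SD of 3 libraries beside them, each panel with its own axis from 0. The sperm gene msp-31, the muscle gene unc-54 and the metabolic gene acdh-1 are far lower at D6, thn-1, ilys-3 and ins-19 are low at D1, and vit-5 and gld-1 differ little between the ages.

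Collagens lost most of their summed level. The 157 col genes summed to 31810.0, 34279 and 27753 FPKM at D1 and 3241, 2774 and 3686 FPKM at D6, 9.67-fold lower. The falls lay mainly among the abundant members. All 22 collagens with a mean of at least 100 FPKM over the 6 libraries fell (median -4.102), 10 of 16 between 10 and 100 FPKM fell and 3 rose, and of the 58 tested members below 10 FPKM 31 rose and 8 fell. Over all genes other than collagens, 20.5% of those at 100 FPKM or more fell and 16.6% of those below 10 FPKM rose. The adult marker collagen col-19, used to time entry into adulthood, had 1279.7, 1143 and 896 FPKM at D1 and 58.9, 56.7 and 64.2 FPKM at D6 (log2 fold change -4.17, SE 0.12, adjusted p = 1.17e-07). The highest collagen at D1 was col-119, which fell from 2946 ± 352 to 207 ± 35.5 FPKM (-3.83). Among those that rose, col-3 had 16.9, 9.98 and 11.002 FPKM at D1 and 47.5, 38.4 and 41.1 FPKM at D6. The larval cuticle collagen dpy-13 had 3.25, 1.53 and 0.634 FPKM at D1 and 13.02, 10.2 and 7.33 FPKM at D6. As a family the collagens counted 34 higher and 40 lower of 96 tested, 26 and 41 under median-of-ratios scaling, and 48 and 34 with scaling to muscle and neurons. Of the 96, 6 reached 1 FPKM at D6 only and 1 at D1 only, which the filter favours. Of the adult cuticle and epidermis list 9 of 12 tested genes fell (median -3.06). Moulting and larval cuticle genes split into 6 higher and 7 lower of 20 (median -0.09), a balance that turned when muscle and neurons set the scale. Of these 20, 2 reached 1 FPKM at D6 only.

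**Figure D5:**
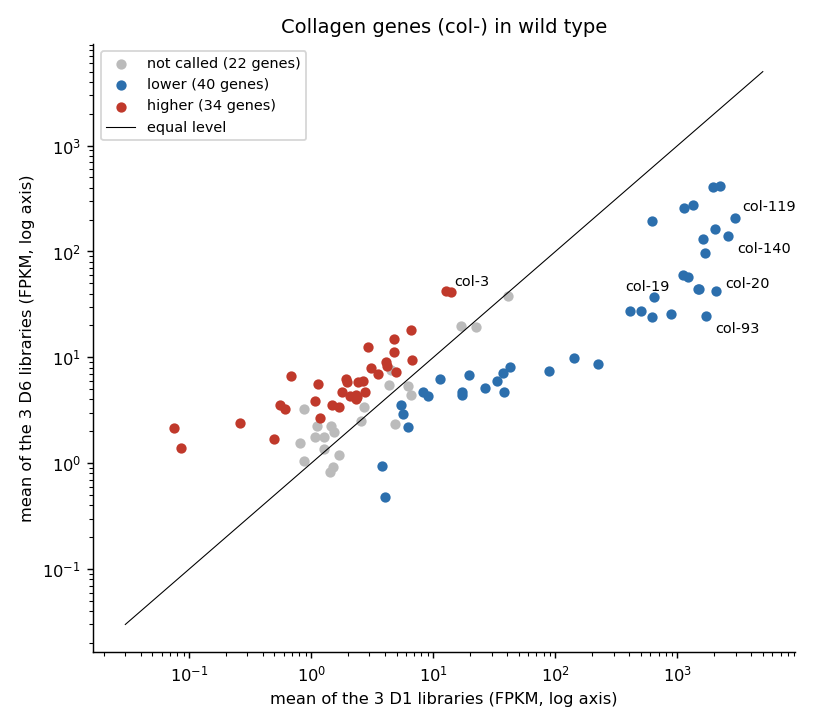
Mean FPKM at D6 (vertical log axis) against mean FPKM at D1 (horizontal log axis) of the 96 collagen genes tested, each the mean of 3 wild-type libraries, with the line of equal level. The 22 collagens above 100 FPKM over all libraries lie far below the line, while most genes under 10 FPKM lie on or above it. The numbers called higher and lower over the family depend on the scaling.

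Muscle genes fell, and most neuronal genes did not pass the test. Of 25 body wall muscle genes 22 fell and 2 rose (median -1.65). The myosin heavy chain unc-54 had 232, 294 and 206 FPKM at D1 and 41.3, 46.02 and 56.4 FPKM at D6 (log2 fold change -2.32, SE 0.15, adjusted p = 9.11e-06), and every D6 library lay far below every D1 library. Troponin T genes tnt-2 and mup-2 fell from 242 ± 33.6 to 33.4 ± 7.71 FPKM (-2.83) and from 217 ± 36.3 to 39.7 ± 3.88 FPKM (-2.41), and the calponin-like clik-1 from 248 ± 29.5 to 45.1 ± 4.82 FPKM (-2.43). The 2 that rose were the myosin chaperone unc-45, at 0.20, and the integrin pat-3, from 78.8 ± 3.42 to 106.4 ± 2.46 FPKM (0.43). Of the 25 tested of 33 neuronal genes 3 rose, 6 fell and 16 did not pass (median -0.09), beside 41.3% higher and 23% lower over all genes. Synaptobrevin snb-1, of the synaptic vesicle, had 361, 354 and 362 FPKM at D1 and 441, 491 and 482 FPKM at D6, and the kinase pkc-1 rose from 39.8 ± 1.52 to 67.5 ± 2.37 FPKM (0.75). The touch neuron tubulin mec-12 fell from 10.02 ± 2.25 to 5.72 ± 0.924 FPKM (-0.70) and the GABA synthesis enzyme unc-25 from 5.61 ± 0.451 to 3.21 ± 0.596 FPKM (-0.66). Under scaling to the muscle and neuron lists 15 neuronal genes rose and none fell, while 18 of 25 muscle genes still fell. Pharynx genes fell in 8 of 12 cases and rose in none (median -0.63), among them the pharyngeal myosins myo-1 (from 9.003 to 3.95 FPKM) and myo-2 (from 10.4 to 5.73 FPKM). With scaling to muscle and neurons 3 fell and 1 rose (median 0.01), and myo-1 and myo-2 lost their calls (adjusted p = 0.0896 and 0.7875). Of the 12 pharynx genes, 1 reached 1 FPKM at D1 only.

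Most basement membrane and intermediate filament genes fell. Of 22 basement membrane genes 16 fell and 2 rose (median -1.08), and 1 of the 22 reached 1 FPKM at D1 only. Perlecan unc-52, which anchors muscle, had 45.5, 47.2 and 41.7 FPKM at D1 and 7.03, 8.84 and 9.91 FPKM at D6 (log2 fold change -2.26, SE 0.12, adjusted p = 2.17e-07). The type IV collagens emb-9 and let-2 fell from 88.3 ± 11.9 to 23.8 ± 3.27 FPKM (-1.85) and from 149 ± 23.03 to 43.1 ± 6.40 FPKM (-1.76), and the laminin epi-1 from 16.17 ± 2.41 to 3.93 ± 0.711 FPKM (-1.80). Of the 13 intermediate filament and lamin genes 12 fell (median -1.34). Of the 13, 2 reached 1 FPKM at D1 only and so could only fall. The epidermal filament ifb-1 had 83.7, 87.8 and 81.2 FPKM at D1 and 30.5, 27.3 and 30.7 FPKM at D6 (log2 fold change -1.48, SE 0.07, adjusted p = 1.27e-07). The intestinal ifb-2 had 57.6, 44.2 and 43.03 FPKM at D1 and 13.5, 13.5 and 13.4 FPKM at D6. Only the nuclear lamin lmn-1 rose among the 13, from 214 ± 3.59 to 270.0 ± 4.36 FPKM (0.33). Hemidesmosome receptors mup-4, let-805 and mua-3 fell by 1.87, 1.45 and 1.42 on the log2 scale. The list of hemidesmosomes and junctions as a whole held 8 higher and 6 lower of 19, beside 41.3% higher and 23% lower over all genes. That balance turned to 3 and 7 under median-of-ratios scaling. Of the tubulins and actins, tba-4 and act-4 fell, from 62.3 to 13.98 FPKM and from 803 to 321 FPKM, and the tubulin of cilia tbb-4 rose from 3.50 ± 0.942 to 23.5 ± 3.42 FPKM (2.46).

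Yolk protein genes fell unequally. The 6 vitellogenins summed to 19859, 20355 and 18166 FPKM at D1 and 7504, 8043 and 8935 FPKM at D6, 2.38-fold lower. vit-2, the second highest gene of all at D1, had 6772, 6242 and 5843 FPKM at D1 and 2018, 2431 and 2419 FPKM at D6 (log2 fold change -1.46, SE 0.08, adjusted p = 5.58e-07), and vit-6 fell from 6225 ± 490.1 to 2569 ± 240.4 FPKM (-1.28). For vit-5 the libraries had 2996, 3402 and 2997 FPKM at D1 and 2667, 2656 and 3119.7 FPKM at D6, the ages overlapped and the gene did not pass (log2 fold change -0.16, SE 0.07, adjusted p = 0.0887), though scaling to muscle and neurons turned it to 0.64. vit-1 fell from 839 ± 200.4 to 97.6 ± 9.71 FPKM (-3.07). vit-3 and vit-4 share much of their sequence with vit-5, so the 3 are uncertain one by one. Their sum was 1.91-fold lower at D6. In the intestine list, of 21 tested genes 12 fell and 2 rose (median -0.55), which became 4 and 9 when muscle and neurons set the scale. The brush border actin act-5 had 375, 341 and 319 FPKM at D1 and 76.4, 64.7 and 75.5 FPKM at D6 (log2 fold change -2.24, SE 0.08, adjusted p = 2.66e-08). The gut transcription factor elt-2 fell from 11.5 ± 0.391 to 5.69 ± 0.567 FPKM (-0.90), and the metallothionein mtl-2 was one of the 2 that rose, from 34.5 ± 2.53 to 116 ± 14.6 FPKM (1.72). The gut cysteine protease cpr-1 had 1092, 388 and 290.2 FPKM at D1 and 1530.5, 1363 and 1516 FPKM at D6 and did not pass, with 1 high D1 library (log2 fold change 1.56, SE 0.56, adjusted p = 0.0669).

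Of 11 tested acyl-CoA dehydrogenase genes 2 rose, 4 fell and 5 did not pass (median -0.08), and 6 rose and 4 fell with scaling to muscle and neurons. The acyl-CoA dehydrogenase acdh-1 starts the alternative route of propionate breakdown that worms use when vitamin B12 is short, and had 791, 647 and 661 FPKM at D1 and 72.7, 62.1 and 66.7 FPKM at D6 (log2 fold change -3.36, SE 0.08, adjusted p = 1.04e-08). acdh-2 fell from 32.4 ± 6.41 to 1.598 ± 0.634 FPKM (-3.69), and the enoyl-CoA hydratases ech-7 and ech-6, of which the latter acts after acdh-1, fell from 155 ± 2.50 to 25.2 ± 2.87 FPKM (-2.57) and from 563 ± 40.9 to 159 ± 3.35 FPKM (-1.82). The nuclear receptor nhr-68, which controls that route, fell from 25.97 ± 2.49 to 12.4 ± 0.866 FPKM (-1.01). The receptor nhr-114, which is tied to diet-dependent fertility, fell from 86.4 ± 19.2 to 5.67 ± 1.81 FPKM (-3.73), the largest fall among 145 tested nuclear hormone receptors. Of the 145, 42 rose and 16 fell, beside 41.3% higher and 23% lower over all genes, and 4 reached 1 FPKM at D6 only. Of the peroxisomal genes that shorten ascaroside pheromones, the thiolase daf-22 fell from 103 to 23.4 FPKM, dhs-28 from 125 to 45.96 FPKM and maoc-1 from 72.0 to 27.6 FPKM, with daf-22 and maoc-1 chosen after their values were seen. Over the 37 tested lipase and beta-oxidation genes 20 fell and 7 rose (median -0.44), turned to 11 and 18 by scaling to muscle and neurons. The lysosomal lipase lipl-1 went the other way, from 5.36 ± 1.24 to 45.96 ± 4.89 FPKM (2.90).

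Fatty acid elongases fell in 7 of 8 tested cases and none rose (median -1.19), or 5 fell and 2 rose with scaling to muscle and neurons. Of the 8, 1 reached 1 FPKM at D1 only. elo-5 and elo-6, which make the branched-chain fatty acids of the worm, both fell far. The libraries had 156, 153 and 183 FPKM at D1 and 41.5, 33.9 and 36.4 FPKM at D6 for elo-5. They had 363, 354 and 423 FPKM at D1 and 72.7, 54.2 and 62.9 FPKM at D6 for elo-6. Palmitate elongase elo-2 fell from 217 to 38.8 FPKM (log2 fold change -2.46, SE 0.06, adjusted p = 3.11e-09). The delta-9 desaturases changed little, with fat-6 at -0.23, fat-5 at -0.34 and fat-7 at -0.41, all below 0 with the deposited values and above 0 when muscle and neurons set the scale. The call of fat-5 was lost without D1 replicate 1 or 3 or D6 replicate 2 (adjusted p = 0.073, 0.0708 and 0.0618), that of fat-7 without any library but D6 replicate 3 (0.0558 to 0.108), and that of fat-6 with scaling to the neuron list (0.205). Respiratory chain genes fell in 19 and rose in 3 of 34 cases (median -0.18), led by the complex I subunit gas-1 (from 114 to 52.3 FPKM). Citric acid and glyoxylate cycle genes fell in 16 and rose in 2 of 24 (median -0.33), led by the isocitrate dehydrogenase idhg-2 (from 16.23 to 3.61 FPKM). Glycolytic genes fell in 12 and rose in 2 of 19 (median -0.37), among them gpd-2, from 260.4 ± 27.1 to 99.2 ± 5.26 FPKM (-1.38), and aldo-1, from 75.1 ± 9.14 to 29.9 ± 2.78 FPKM (-1.30). All 3 of these balances turned with scaling to muscle and neurons, to 1 lower and 28 higher, 2 and 17, and 3 and 13.

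The vacuolar ATPase and core autophagy genes went apart with the deposited values. Of 20 vacuolar ATPase genes, which acidify lysosomes and other compartments, 17 fell and 1 rose (median -0.50), 18 and 1 under median-of-ratios scaling, and 3 and 11 with scaling to muscle and neurons. The intestinal subunit vha-6 fell from 85.1 ± 6.89 to 32.9 ± 1.97 FPKM (-1.34) and vha-5, of the epidermis and excretory canal, from 32.9 ± 3.02 to 10.5 ± 0.573 FPKM (-1.56). The lysosomal protease asp-2 had 404, 307 and 309 FPKM at D1 and 90.7, 82.5 and 93.6 FPKM at D6. Of 25 core autophagy genes 19 rose and none fell (median 0.41), with 12 rising under median-of-ratios scaling. The ubiquitin-like lgg-3 rose from 55.5 ± 2.89 to 104.04 ± 2.32 FPKM (0.89) and the Beclin homologue bec-1 from 30.7 ± 1.61 to 50.4 ± 4.48 FPKM (0.69). The vacuolar ATPase and core autophagy sets, and the elongases, were gathered after the values had been seen. The joint list of autophagy and lysosome genes held 16 higher and 22 lower of 48 (median -0.08). With scaling to muscle and neurons it held 32 higher and 4 lower.

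Defence genes moved in both directions. Of 36 tested immune effectors 18 rose and 7 fell (median 0.68), 16 and 8 under median-of-ratios scaling, beside 41.3% higher and 23% lower over all genes. Of the 36, 2 reached 1 FPKM at D6 only, which the filter favours. The rises were led by thn-1, ilys-3, thn-2 and abf-2. The lysozyme lys-7, which DAF-16 is known to raise, had 479.9, 326 and 505 FPKM at D1 and 2262, 1926 and 2059 FPKM at D6 (log2 fold change 2.27, SE 0.17, adjusted p = 6.31e-05). C-type lectins, many of them secreted in defence, fell in 58 and rose in 21 of 100 tested cases (median -0.66, with 30 genes at 1 FPKM or more only in D1 libraries), or 35 and 35 with scaling to muscle and neurons. The saposin-like spp-17 fell from 694 ± 26.4 to 57.2 ± 13.5 FPKM (-3.60). Of the epidermal antimicrobial peptides, nlp-33 and nlp-27 fell from 34.3 ± 2.16 to 10.6 ± 2.83 FPKM (-1.63) and from 101 ± 16.53 to 41.9 ± 8.19 FPKM (-1.26). Of 10 tested SCP/TAPS genes 2 rose and 7 fell (median -1.46). Of the 10, 5 reached 1 FPKM at D1 only and 1 at D6 only, which the filter favours. Here scl-2 rose from 79.4 ± 31.3 to 540.2 ± 60.1 FPKM (2.81). In contrast, scl-15 had 11.7, 10.2 and 10.2 FPKM at D1 and was listed at 0 in all D6 libraries.

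Insulin-like peptide genes rose at about the share of all genes. Of 23 tested insulin-like peptide genes 9 rose and 2 fell (median 0.25), beside 41.3% higher and 23% lower over all genes. Of these, 3 reached 1 FPKM at D6 only and 2 at D1 only, which the filter favours. Besides ins-19, ins-8 and ins-31, ins-2 rose from 1.83 ± 0.426 to 16.9 ± 3.64 FPKM (2.65) and ins-7, a DAF-2 agonist of the intestine, from 8.01 ± 2.44 to 33.6 ± 6.02 FPKM (1.96). The receptor daf-2 had 63.7, 54.6 and 53.0 FPKM at D1 and 61.2, 73.2 and 64.1 FPKM at D6. The values of daf-16 were 109, 98.6 and 92.4 FPKM at D1 and 103, 120.1 and 112 FPKM at D6, and neither gene passed (adjusted p = 0.0607 and 0.0923). The kinases akt-1 and pdk-1 downstream of the receptor rose from 94.4 ± 6.35 to 143 ± 5.32 FPKM (0.60) and from 9.98 ± 0.806 to 18.1 ± 1.24 FPKM (0.80). Of 22 genes known to be raised by DAF-16, 11 rose and 5 fell (median 0.40), beside the same 41.3% and 23%, and 2 of them reached 1 FPKM at D6 only. The metallothionein mtl-1 had 15.8, 4.21 and 9.84 FPKM at D1 and 136, 93.1 and 126 FPKM at D6. The ferritin ftn-1 had 2.92, 3.83 and 0.586 FPKM at D1 and 25.1, 18.5 and 21.8 FPKM at D6. For the linker histone hil-1 the values were 8.09, 4.20 and 6.01 FPKM at D1 and 31.4, 35.3 and 32.1 FPKM at D6, and in all 3 genes the D6 libraries lay above the D1 libraries. Superoxide dismutase sod-3 fell instead, from 4.85 ± 0.952 to 2.73 ± 0.411 FPKM (-0.64). Genes lowered by DAF-16 or tied to PQM-1 split into 5 higher and 5 lower of 13. dod-23 had 119.97, 107 and 142.4 FPKM at D1 and 816, 746 and 729.6 FPKM at D6 and rose, and pqm-1 itself did not pass (log2 fold change 0.15, adjusted p = 0.318). daf-36, which makes the first step of dafachronic acid synthesis, fell from 9.96 ± 0.711 to 2.70 ± 0.923 FPKM (-1.59).

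Of the detoxification families, UDP-glucuronosyltransferases fell in 28 and rose in 9 of 49 cases (median -0.56), or 19 and 17 with scaling to muscle and neurons, beside 23% lower over all genes. Of these genes 6 reached 1 FPKM at D1 only, as did 3 of the glutathione S-transferases. The glutathione S-transferases fell in 13 and rose in 3 of 28 (median -0.39), a balance that scaling to muscle and neurons turned to 8 and 11. ugt-26 fell from 15.9 ± 0.885 to 2.68 ± 0.188 FPKM (-2.198) and gst-26 from 38.3 ± 0.616 to 7.46 ± 1.56 FPKM (-2.23). The methionine sulfoxide reductase msra-1, which repairs oxidized methionine, had 341, 233 and 259.7 FPKM at D1 and 15.7, 18.1 and 16.9 FPKM at D6 (log2 fold change -3.95, SE 0.13, adjusted p = 6.22e-08). The peroxisomal-type ABC transporter pmp-5 fell from 63.8 ± 9.11 to 6.79 ± 0.683 FPKM (-3.05). Cytochrome P450 genes rose in 16 and fell in 12 of 44, beside 41.3% higher and 23% lower over all genes. Of the 44, 2 reached 1 FPKM at D6 only and 1 at D1 only. The rises were led by cyp-35B1, cyp-14A3 and cyp-34A9, at 3.06, 2.58 and 2.45. The transcription factor skn-1, which controls many such genes, rose from 102 ± 1.07 to 136 ± 9.99 FPKM (0.41).

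Chaperone genes shifted little as a group. Of 33 cytosolic chaperones 13 rose and 5 fell, beside 41.3% higher and 23% lower over all genes. Their median was 0.17, against 0.17 for all genes, and under median-of-ratios scaling 5 rose and 12 fell. Of the 33, 2 reached 1 FPKM at D6 only and 1 at D1 only, which the filter favours. The heat-inducible hsp-70 had 0.337, 0.317 and 0.0895 FPKM at D1 and 3.18, 2.61 and 2.49 FPKM at D6 (log2 fold change 1.59, SE 0.17, adjusted p = 2.1e-05). The small heat shock gene hsp-16.2 had 3.03, 1.67 and 2.87 FPKM at D1 and 4.85, 5.44 and 5.77 FPKM at D6. Both stayed under 6 FPKM in every library, and hsp-16 genes lie in near-identical pairs. hsp-70 passed the filter through its D6 libraries alone, which favours a rise. The muscle-enriched small heat shock protein hsp-25 fell from 90.9 ± 7.75 to 31.5 ± 2.49 FPKM (-1.50), and hsp-12.1 from 5.08 ± 0.22 to 0.735 ± 0.257 FPKM (-1.82). The heat shock factor hsf-1 rose from 51.2 ± 2.89 to 69.5 ± 2.23 FPKM (0.43). In the list of temperature and cold response genes 9 rose and 5 fell of 18 tested (median 0.36). Over all genes 41.3% were higher and 23% lower, and 2 of the 18 reached 1 FPKM at D6 only. The aspartic protease asp-17 rose from 1.68 ± 0.654 to 11.7 ± 1.11 FPKM (2.27), the cystatin cpi-1 had 173, 227 and 264 FPKM at D1 and 999.6, 909 and 884 FPKM at D6, and hacd-1 fell from 159.9 ± 22.7 to 50.6 ± 8.96 FPKM (-1.65). Age and temperature cannot be told apart in these changes.

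Proteasome and endoplasmic reticulum stress genes had medians near the 0.17 of all genes. The median of cytosolic ribosomal protein genes lay below it. Cytosolic ribosomal protein genes did not pass in 53 of 77 cases, with 6 higher and 18 lower (median -0.06), 1 and 50 under median-of-ratios scaling and 76 and 0 with scaling to muscle and neurons. Over all genes 41.3% were higher and 23% lower. Proteasome genes rose in 15 and fell in 1 of 31 (median 0.12), or 1 and 6 under median-of-ratios scaling. The genes of the endoplasmic reticulum stress response counted 12 higher and 5 lower of 21, or 5 and 9, with the sensor ire-1 rising from 40.2 ± 2.06 to 60.5 ± 3.96 FPKM (0.58). The elongation factor eef-1A.1 was the highest gene at both ages and rose from 7715 ± 269 to 8847 ± 255 FPKM (0.20), a call that median-of-ratios scaling took away (log2 fold change 0.005, adjusted p = 0.963). The fatty acid and retinol binding protein far-2, among the 5 highest at D1, fell from 3986 ± 265 to 2779 ± 77.2 FPKM (-0.52), but stood at 0.28 with scaling to muscle and neurons.

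Markers of embryos, which hermaphrodites carry in the uterus, changed in both directions. Of 20 tested zygotic genes 7 rose and 9 fell (median -0.10), a balance turned by scaling to muscle and neurons. Of the 20, 2 reached 1 FPKM at D1 only, which the filter favours. The pharyngeal organ gene pha-4 had 10.5, 12.4 and 10.6 FPKM at D1 and 1.29, 2.68 and 2.80 FPKM at D6. The muscle gene hlh-1 had 4.43, 6.70 and 4.44 FPKM at D1 and 0.645, 0.981 and 0.81 FPKM at D6, and both genes were lower in every D6 library than in any D1 library. The early T-box gene tbx-38 had 1.13, 1.74 and 1.81 FPKM at D1 and 8.40, 9.10 and 6.16 FPKM at D6 and rose. The homeobox gene ceh-27 fell from 7.20 ± 1.52 to 0.842 ± 0.395 FPKM (-2.16). In the glp-1 libraries pha-4 averaged 6.83 FPKM at D1 and 8.03 FPKM at D6, and hlh-1 3.79 and 2.31 FPKM. There ceh-27 averaged 1.06 and 0.890 FPKM, and tbx-38 was at 0 at both ages. The summed level of the 11 embryo markers was 199 to 203 FPKM at D1 and 238 to 260.0 FPKM at D6, and the part of embryos in the muscle, pharynx and cuticle results was not tested.

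The change with age was also set against that of the glp-1(e2141) libraries, which were raised the same way. A difference between the genotypes was called in 49.4% of the 12147 genes, 18.2% with a more positive and 31.1% with a more negative log2 fold change in wild type, beside 55.5% called for age in glp-1. Opposite calls in the genotypes were found for 835 genes (6.87%), of which 380 (3.13%) rose in wild type and fell in glp-1 and 455 (3.75%) did the reverse. For body wall muscle the list median of -1.65 stood beside -1.17 in glp-1, and for basement membrane genes -1.08 beside -0.51. Not all lists shared their direction: the intestine list had -0.55 beside 0.30 in glp-1, and coelomocytes -0.19 beside 0.54.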

How the data were processed

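Whole-worm RNA-seq libraries of wild type at D1 and D6 (3 each) were analysed, with the 6 glp-1(e2141) libraries only in tests of a difference between genotypes. Per the file headers, the authors deposited 1 FPKM value for each gene. HISAT2 2.0.4, the build WBcel235 and DESeq2 1.6.3 are listed in the submitters' processing notes, with no order of use. Which program gave FPKM, which annotation release was used and whether strand was counted is not stated in those notes, the labels or the headers. Overlapping genes and near-identical copies are therefore uncertain singly. No pair of the 12 files was identical, 18142 of 20257 names matched a WBcel235 symbol for coordinates, and 11 names had become dates. FPKM hold no counts, so no counting intervals are given. Estimated depth came from the steps of low values in 12687 genes with 1 transcript.

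Values were log2(FPKM + 1), which understates changes of low genes. Genes were tested by limma 3.58.1 (R 4.3.3) with a variance trend and robust moderation on the 6 wild-type libraries (4 residual degrees of freedom), two-sided, with Benjamini-Hochberg adjustment and a threshold of 0.05. The difference between genotypes was tested with all 12 libraries (8 residual degrees of freedom). Named genes are the 15 largest rises and 15 largest falls (called, ages not overlapping, mean of at least 10 FPKM), up to 4 called members of each list or family with the largest change and at least 5 FPKM, 22 genes with known roles, and the 5 highest at each age. Beyond this rule, pat-3, unc-45, ech-6, daf-22, maoc-1, rme-2, gld-1, col-3, col-119, lys-7 and cpr-1 were chosen after their values were seen. The members and the 38 lists and 43 name families were chosen with earlier results of these data known. Alternatives were pseudocounts of 0.1 and 5, no filter, a stricter filter, other scalings, all 12 libraries in the fit, no variance trend, a replicate block, and leaving out each library.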

Additional observations from a re-analysis of the deposited data

Results flagged for a closer look

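The change with age differed between wild type and glp-1 in 5996 of 12147 genes (49.4%), by a test of the difference itself (limma over all 12 libraries), with 2214 differences positive, meaning a more positive log2 fold change in wild type, and 3782 negative. Age change was called in 6741 genes in glp-1 (55.5%), and 835 genes (6.87%) changed in opposite directions in the genotypes, 380 of them rising in wild type.

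The genes named next were picked from those of the 835 with a mean of at least 10 FPKM in at least 1 wild-type group. Among those that rose in wild type and fell in glp-1, the glutathione S-transferase gst-24 differed most, at 3.64 (SE 0.27, adjusted p = 7.65e-07). It went from 4.24 ± 1.70 to 13.4 ± 2.198 FPKM in wild type and from 59.9 ± 5.92 to 12.8 ± 0.326 FPKM in glp-1 (SD, n = 3 throughout). The collagen col-3 differed by 3.62 (SE 0.86, adjusted p = 0.00664) and went from 12.63 ± 3.73 to 42.3 ± 4.70 FPKM in wild type and from 43.5 ± 9.32 to 15.7 ± 16.9 FPKM in glp-1, with the glp-1 D6 libraries widely spread. The collagen col-107 differed by 3.04 (SE 1.02, adjusted p = 0.031), and its call was lost without wild-type D1 replicate 1 or 2, wild-type D6 replicate 1 or 2, glp-1 D1 replicate 2 or 3, or glp-1 D6 replicate 1 (adjusted p = 0.0512 to 0.071). W02D7.5 differed by 2.60 (SE 0.22, adjusted p = 1.75e-06) and the cuticlin-like gene cutl-16 by 2.46 (SE 0.23, adjusted p = 3.57e-06), the latter from 2.72 ± 0.22 to 13.2 ± 3.17 FPKM in wild type and from 1.42 ± 0.236 to 0.659 ± 0.186 FPKM in glp-1.

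Under the same limit of 10 FPKM, among the genes that fell in wild type and rose in glp-1, R03D7.2 differed by -4.08 (SE 0.18, adjusted p = 2.79e-08). It went from 14.2 ± 2.35 to 6.94 ± 0.0378 FPKM in wild type and from 0.0403 ± 0.00688 to 8.27 ± 0.916 FPKM in glp-1, so that it was near 0 in glp-1 at D1. E03H12.5 differed by -3.66 (SE 0.30, adjusted p = 1.44e-06) and went from 12.34 ± 0.803 to 0.666 ± 0.452 FPKM in wild type and from 0.105 ± 0.182 to 0.713 ± 0.355 FPKM in glp-1. C27A7.8 differed by -3.53 (SE 0.27, adjusted p = 8.93e-07) and Y68A4A.13 by -3.51 (SE 0.38, adjusted p = 1.48e-05). F15E6.4 differed by -3.49 (SE 0.39, adjusted p = 3.39e-05) and went from 31.9 ± 2.33 to 6.66 ± 3.19 FPKM in wild type and from 39.7 ± 2.51 to 98.9 ± 20.7 FPKM in glp-1.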

How the results depend on the processing

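The number of genes called (7806) stayed between 6109 and 9934 under all alternatives, and between 7137 and 7686 when 1 library was left out, with 4487 to 5038 higher and 2597 to 2650 lower. Lower calls dropped to 1587 when a mean of 5 FPKM was required, where fewer genes (8468) were tested. Higher calls were 3228 under median-of-ratios scaling, and with scaling to the muscle and neuron lists higher calls were 8678, lower calls 1256, and 51 of 81 lists and families kept the direction that held more calls. That scaling also turned the sign of 27 of 318 named genes, by the construction that raises all genes. Their log2 fold changes became 0.36 for nmy-1, 0.54 for rme-1, 0.038 for nhr-80, 0.0244 for asg-2, 0.10 for ucr-11, 0.11 for suca-1, 0.13 for idh-1, 0.20 for ric-4, 0.22 for rab-3, 0.29 for ife-5, 0.11 for flp-17, 0.12 for rpl-11.2, 0.44 for rpl-25.1, 0.46 for rpl-14, 0.16 for srr-4, 0.0139 for asp-10, 0.14 for aqp-10, 0.27 for srp-1, 0.0191 for vha-11, 0.64 for vit-5, 0.44 for fat-5, 0.57 for fat-6, 0.22 for fat-7, 0.67 for rps-25, 0.28 for far-2, 0.66 for Y82E9BR.3 and 0.66 for rps-8. For no other alternative did a named gene change sign. Whether the replicate numbers pair the libraries is not known. The deviations of same-numbered libraries correlated at 0.00585, 0.0374 and -0.17, and those of other pairs at -0.14 to 0.128. With 3 libraries per age these values cannot decide it. With a replicate block 7486 genes were called, 4760 higher and 2726 lower. The interaction, the age change in wild type minus the age change in glp-1, was called in 5568 to 6851 genes under the alternatives run for it. FPKM without counts leave the precision of low genes unknown.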

Other observations

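More X-linked genes fell than rose. Of 1511 X-linked genes tested, 24.02% rose and 33.3% fell (median log2 fold change -0.08), while on the autosomes 37.3% (V) to 48.997% (I) rose and from 295 of 1789 genes (III) to 515 of 2002 (V) fell (medians 0.12 to 0.23). Genes with germline roles are known to be scarce on the X in this animal. Genes neighbour each other and are not independent, and no test was made.

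Genes with a sequence name alone made up 5809 of the 12147 tested, of which 2201 (37.9%) rose and 1410 (24.3%) fell. T05E12.3 (chromosome V, 17076874 to 17077989, minus strand) had 11.9, 6.71 and 6.93 FPKM at D1 and 154, 170.3 and 132 FPKM at D6, and C54C8.12 had 0.409, 0.656 and 0.968 FPKM at D1 and 42.95, 36.2 and 36.3 FPKM at D6. Among the falls were T13F3.6, with 86.1, 119.3 and 105.7 FPKM at D1 and 1.29, 5.79 and 3.53 FPKM at D6, and K12H6.9, with 26.9, 24.9 and 15.4 FPKM at D1 and 0 listed in every D6 library. The log2 fold changes of the first 3 of these were 4.04, 4.56 and -4.65. C54C8.12 reached 1 FPKM at D6 only and K12H6.9 at D1 only, which the filter favours. Among ubiquitin ligase adaptor families, F-box B genes rose in 30 and fell in 3 of 76 tested cases (median 0.38), or 24 and 7 under median-of-ratios scaling, and 6 of them reached 1 FPKM at D6 only. BATH domain genes rose in 14 and fell in 2 of 29 (median 0.36), or 10 and 2. Over all genes tested 41.3% rose and 23% fell.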
